A study of Mus musculus with 4 samples.

Results

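Transcripts of p53 and of 9 genes that it is known to act on were followed in single cells from the bones of 1 young and 1 old mouse. The 10 genes were Trp53 itself and Mdm2, Ccng1, Gdf15, Zmat3, Phlda3, Sesn1, Sesn2, Btg2 and Gadd45a. They were picked by symbol from the 32285 genes listed for both mice, and all 10 were found in each. The mice were 6 and 24 months old, both carried the INK-ATTAC transgene, and neither was treated. INK-ATTAC couples part of the p16 promoter to a caspase 8 that a drug can switch on, so that cells using the promoter can be killed, and no drug was given here. Marrow was centrifuged out of femur and tibia and digested with Liberase, and the remaining bone was digested with collagenase. Red cells were lysed, lineage-positive blood cells were depleted, and live CD45- cells were sorted. RNA and a tagged CD24 antibody were then read together by CITE-seq, which counts mRNA molecules (UMIs, unique molecular identifiers) and antibody tags in the same droplet. With 1 mouse of each age, age cannot be told apart from the animal, the library or the sort.

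p53 is a transcription factor that is held low by the ubiquitin ligase Mdm2 and is stabilised after DNA damage and other stress, mostly by changes in the protein rather than in its mRNA. Mdm2 is itself a p53 target, which closes a negative feedback loop. Other targets slow the cell cycle, repair DNA, restrain mTOR and AKT signaling, or are secreted, and several of them also answer to other transcription factors: Btg2 to growth factor and immediate-early signals, Gadd45a, Sesn2 and Gdf15 to ATF4 in the integrated stress response. In bone, p53 is known for its restraint of osteoblast differentiation and for its part in senescence.

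Promoter windows from RefSeq (build GRCm38.p6, which is mm10, the build named in the submitters' processing notes) ran from 250 bases before to 50 bases after each annotated start and were found for 9 of the 10 genes, with 11 windows in all. Zmat3 had none. The p53 half-site was searched on both strands and was held by 5 of the 11 windows, each of a different gene, against 8.36% of all 32851 windows. The 5 stretches with that match are shown here because they tie the letters of the p53 motif to the genes whose levels follow, and Btg2 is shown beside them for a different motif. Capitals mark the p53 half-site in the first 5 lines. In the line for Btg2 they mark the cyclic AMP response element TGACGTCA, which was held by 1.79% of all windows and by no other of these genes. All stretches are 5′ to 3′ on the strand of the gene and end before the annotated start.

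Trp53, chr11:69580239-69580338, plus strand: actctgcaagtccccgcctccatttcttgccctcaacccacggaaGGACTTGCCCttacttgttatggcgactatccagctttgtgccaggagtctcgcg
Mdm2, chr10:117710890-117710989, minus strand: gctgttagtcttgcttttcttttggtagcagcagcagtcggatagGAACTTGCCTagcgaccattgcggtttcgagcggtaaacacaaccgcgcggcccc
Ccng1, chr11:40755417-40755516, minus strand: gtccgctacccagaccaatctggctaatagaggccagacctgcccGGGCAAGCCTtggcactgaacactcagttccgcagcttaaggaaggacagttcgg
Sesn1, chr10:41887221-41887320, plus strand: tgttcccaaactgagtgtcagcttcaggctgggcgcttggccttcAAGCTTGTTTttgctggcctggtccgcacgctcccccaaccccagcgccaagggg
Gadd45a, chr6:67037408-67037492, minus strand: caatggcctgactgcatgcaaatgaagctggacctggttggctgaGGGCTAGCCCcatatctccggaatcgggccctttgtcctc
Btg2, chr1:134079269-134079366, minus strand: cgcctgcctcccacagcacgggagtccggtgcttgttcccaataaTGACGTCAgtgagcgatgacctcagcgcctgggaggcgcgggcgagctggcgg

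The match began 75 bases before the start of Trp53, 186 before that of Mdm2, 185 before that of Ccng1, 173 before the second annotated start of Sesn1 and 40 before that of Gadd45a. The AP-1 motif TGANTCA, searched in the same way, was in none of the 11 windows and in 7.81% of all windows. A match of letters is a description of the window and not a bound site.

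The young library held 10063 kept cells (median 6385 UMIs) and the old library 5607 (median 9711), with 81076421 and 66702846 RNA UMIs, and 19 cell barcodes occurred in both. Cells were placed in groups by the UMIs of fixed marker genes, which took 76.7% of young and 74.5% of old kept cells. The 6 mesenchymal groups were stromal cells that hold Lepr and Adipoq (3010 young and 1887 old cells), osteoblasts (776 and 426), chondrocytes (142 and 31), tendon cells (417 and 175), fibroblasts (2400 and 1002) and pericytes (72 and 69). The 5 blood groups were erythroid cells (303 and 329), granulocytes (80 and 130), the B lineage (368 and 50), megakaryocytes (72 and 54) and progenitors (78 and 26). These blood cells are those that passed a lineage depletion and a CD45- sort, so neither their number nor their state stands for marrow. They came to 901 young and 589 old cells. The markers that placed the cells are no separate check of the groups. Each group held all of its own markers above the level in the other groups, with the smallest margins for Ibsp and Smpd3 in young osteoblasts, except the progenitor group. That group rested on Myb, Gata2 and Kit, with Mpo at 0 UMIs in the young mouse and Hdc below the other groups in both, and cells called pericytes also held Acta2 and Myh11 of smooth muscle. Scores within 0.05 of the gate were found in 15.0% of young and 15.1% of old cells.

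Levels below are UMIs of a gene per 1000000 UMIs (CPM) of the summed cells of 1 group in 1 mouse, the young mouse first, and the exact 95% intervals in square brackets reflect counting error alone. The assay reads the 3′ end, so levels are compared between groups for 1 gene and not between genes. Differences between groups were tested on the 22 sums of 11 groups in 2 mice with edgeR's quasi-likelihood test (mouse as a block, two-sided, Benjamini-Hochberg over all 13224 genes tested). The p-values measure only how far differences between groups repeated in these 2 mice, with a spread shared by all groups. The comparison of the 5 blood with the 6 mesenchymal groups called 63.6% of all genes, 25.8% higher and 37.8% lower in blood. Of the 10 genes, 7 were called, with Trp53, Mdm2, Ccng1 and Gadd45a higher and Phlda3, Zmat3 and Btg2 lower. A share of 7 in 10 is near that of all genes, most of which differed between these cell families. The median log2 difference was -0.17 over these genes and -0.23 over all genes.

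**Figure D1:**
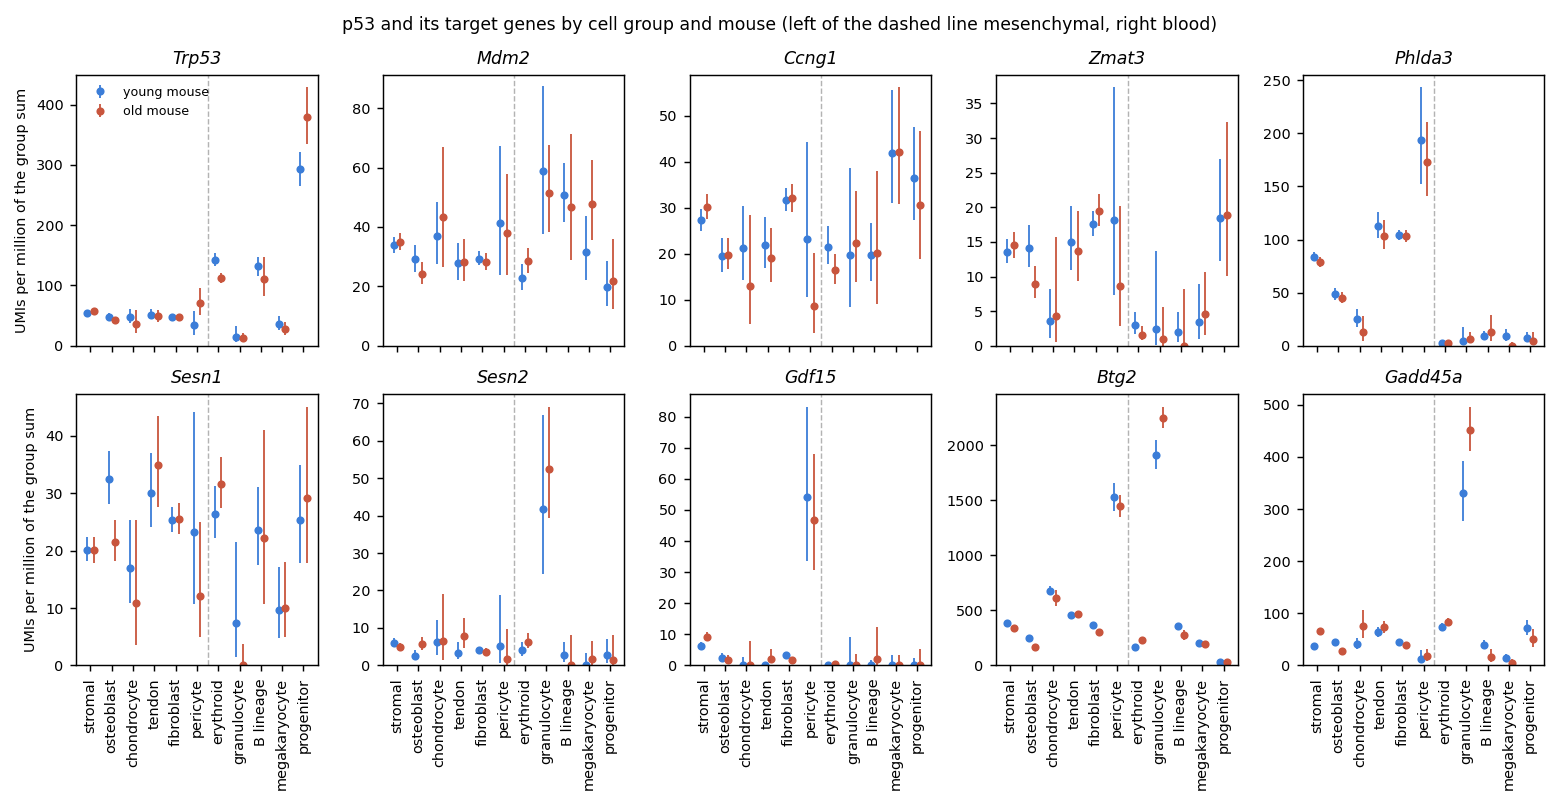
Level of each gene (CPM of the group sum, linear axes from 0) in the 11 cell groups of the young (blue) and the old (red) mouse. Points are 1 sum each and bars are exact 95% counting intervals. Trp53 was highest in progenitors (293 and 380), Phlda3 was near 0 in all blood groups, Gdf15 stood out in pericytes (54.3 and 46.8), and Sesn2, Btg2 and Gadd45a were highest in granulocytes.

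Trp53, the mRNA of p53 itself, varied less across mesenchymal groups than across blood groups. Over mesenchymal groups the young mouse ran from 33.6 (pericytes) to 54.9 (stromal cells) and the old mouse from 36.8 (chondrocytes) to 71.1 (pericytes). In stromal cells it was 54.9 and 57.6, in fibroblasts 47.7 and 48.5, and in osteoblasts 48.1 and 42.8. None of the 4 tests against stromal cells called it, with log2 differences of -0.04 ± 0.19 (SE) in osteoblasts, -0.02 ± 0.24 in chondrocytes, -0.03 ± 0.19 in fibroblasts and 0.01 ± 0.20 in tendon cells. Plain differences of log2 levels from stromal cells were below 0 in all 4 groups of both mice. They were -0.19 and -0.42 in osteoblasts, -0.19 and -0.63 in chondrocytes, -0.20 and -0.24 in fibroblasts and -0.08 and -0.24 in tendon cells. Blood groups spread far more widely: Trp53 reached 293 [266, 322] and 380 [335, 429] in progenitors, 142 and 112 in erythroid cells and 132 and 111 in the B lineage. It fell to 35.8 and 27.5 in megakaryocytes and to 14.7 [5.40, 32.0] and 12.1 [6.27, 21.2] in granulocytes. Among the 11 groups, the order progenitors, then erythroid and B-lineage cells, then all others was thereby the same in both mice, with granulocytes last. Erythroid and B-lineage cells had overlapping intervals. In the old mouse so did B-lineage cells [82.6, 147] and pericytes [51.0, 96.4]. Cells placed in no group are outside this order, yet they held 39.6% (young) and 39.0% (old) of all Trp53 UMIs. Of the 10 cells with most Trp53 UMIs per mouse, 7 (young) and 10 (old) were such cells. Blood exceeded mesenchymal groups by 0.83 ± 0.12 on the log2 scale (edgeR, adjusted p = 9.00e-06, 2 of 2 mice), although the ranges of the groups overlapped. The stricter marker gate, which left no progenitor group, gave 0.26 (adjusted p = 0.182), and thinning to 2000 UMIs per cell gave 0.34 (adjusted p = 0.318), so the call did not hold there. The groups high in Trp53 also held proliferation transcripts, with a summed level of 6 cycling markers of 3332 and 3997 CPM in erythroid cells and 3527 and 2844 in the B lineage, against 28.1 and 37.7 in stromal cells. Progenitors, with the highest Trp53, held 394 and 211, and megakaryocytes, which were low in Trp53, held 391 and 378. The part of cycling in the Trp53 levels was not tested.

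Mdm2, the ligase that removes p53, did not follow Trp53. It was 19.9 [13.3, 28.6] and 21.8 [12.2, 36.0] in progenitors, its lowest level of any group in both mice, and 58.9 [37.7, 87.6] and 51.5 [38.4, 67.8] in granulocytes, its highest. The ends of its order were thus the reverse of those for Trp53. The 9 groups between lay close together, from 22.9 to 50.9 (young) and from 24.3 to 47.7 (old), and no neighbours in the order of 11 groups had intervals apart in either mouse. Over the 22 sums the Pearson r of Mdm2 with Trp53 on the log2 scale was -0.60, a description of sums that share 2 mice and 1 scaling. Blood exceeded mesenchymal groups by 0.40 ± 0.10 (edgeR, adjusted p = 0.00178), but the plain means of log2 levels differed by only 0.04 (young) and 0.20 (old), and the call was lost after thinning (0.23, adjusted p = 0.549). No test against stromal cells called Mdm2, the nearest being chondrocytes (0.52 ± 0.22, adjusted p = 0.0822).

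Ccng1 encodes cyclin G1, which recruits a phosphatase to Mdm2, and no neighbours in its order of groups were apart in either mouse. Stromal cells held 27.2 and 30.2, fibroblasts 31.7 and 32.0 and osteoblasts 19.5 and 19.8. Megakaryocytes were highest at 41.9 [30.9, 55.6] and 42.2 [30.9, 56.2], and the lowest values were 19.5 in young osteoblasts and 8.67 [2.81, 20.2] in old pericytes, the latter from 5 UMIs. Only the contrast of blood with mesenchymal groups was called (0.52 ± 0.13, edgeR, adjusted p = 0.00177), with plain differences of 0.14 and 0.40 in the 2 mice. It was lost after thinning (0.41, adjusted p = 0.267), and under the stricter gate tendon cells were called lower than stromal cells (-0.71, adjusted p = 0.0335).

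Phlda3, which competes with AKT for the membrane and so restrains AKT signaling, was a mesenchymal transcript in these cells. It was 83.6 and 78.8 in stromal cells, 104 and 103 in fibroblasts, 113 and 104 in tendon cells and 194 [153, 243] and 173 [141, 211] in pericytes. Osteoblasts held 48.8 and 45.2, and chondrocytes 24.8 [17.3, 34.4] and 13.0 [4.77, 28.3]. Blood groups lay between 2.15 and 9.12 (young) and between 0 and 13.4 (old), so that in the young mouse no blood group reached a mesenchymal one, while in the old mouse the B lineage (13.4) and chondrocytes (13.0) met. The difference was -3.54 ± 0.19 (edgeR, adjusted p = 7.90e-12, lower in blood in 2 of 2 mice). At least 1 Phlda3 UMI was seen in 32.7% of young stromal cells, with a median of 5279.5 UMIs per cell. In young erythroid cells, with a median of 11548, it was seen in 2.97%. The part of depth and of free RNA in these shares was not tested. Chondrocytes were lower than stromal cells by -1.63 ± 0.34 (adjusted p = 0.00101), and osteoblasts by -0.52 ± 0.23, which did not pass the threshold (adjusted p = 0.0896). Fibroblasts (0.55 ± 0.22, adjusted p = 0.0589) and tendon cells (0.59 ± 0.23, adjusted p = 0.0594) also fell just short, and both passed with DESeq2 (adjusted p = 0.0279 and 0.0109). Within stromal cells Phlda3 was 85.5 and 81.2 where the mitochondrial share of UMIs was under 5%, 59.2 and 44.6 at 5 to 10%, and 54.0 and 45.5 from 10 to 20%, although over thinned stromal cells its Spearman correlation with this share was only 0.010 and -0.046.

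Zmat3, an RNA-binding protein that p53 uses to alter splicing, was higher in most mesenchymal groups than in most blood groups. Stromal cells held 13.5 and 14.5, fibroblasts 17.6 and 19.5, and tendon cells 15.0 and 13.7, whereas erythroid cells held 2.93 and 1.59 and the B lineage 1.92 [0.523, 4.92] and 0 UMIs. Progenitors went the other way at 18.5 [12.2, 26.9] and 18.9 [10.1, 32.4], level with the highest mesenchymal groups, and so did chondrocytes at 3.54 and 4.33, level with megakaryocytes at 3.5 and 4.58. Blood was lower by -1.51 ± 0.25 (edgeR, adjusted p = 3.16e-05), and by -3.68 under the stricter gate that has no progenitor group, while after thinning it was below the filter and not tested. Chondrocytes were lower than stromal cells (-1.60 ± 0.47, adjusted p = 0.0137) on 5 and 2 UMIs, and fibroblasts were higher (0.59 ± 0.20, adjusted p = 0.0227, but 0.0589 with no filter on low counts).

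Sesn1 and Sesn2 encode sestrins, which restrain mTORC1, and they were found in different groups. Sesn1 was 20.2 and 20.1 in stromal cells and 7.36 [1.52, 21.5] and 0 in granulocytes, where Sesn2 had its highest level by far. Tendon cells held more Sesn1 than stromal cells, at 30.0 and 34.9 (0.86 ± 0.23, edgeR, adjusted p = 0.00786), which narrowly missed the threshold under the stricter gate (adjusted p = 0.0553). Osteoblasts were called higher as well (0.68 ± 0.22, adjusted p = 0.0190), but on 32.5 and 21.5, and the interval of the old mouse (18.2 to 25.3) overlaps that of its stromal cells. Fibroblasts were just past the threshold (0.53 ± 0.21, adjusted p = 0.0481), with 25.4 and 25.5, and the call was lost under all 7 other settings tested (adjusted p from 0.0512 to 0.145). Sesn2 lay between 0 and 7.95 in 10 groups and reached 41.7 [24.3, 66.8] and 52.5 [39.2, 68.9] in granulocytes, on 17 and 52 UMIs. Neither sestrin was called between blood and mesenchymal groups (Sesn1 -0.48 ± 0.21, adjusted p = 0.0551, Sesn2 0.13 ± 0.44, adjusted p = 0.897).

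Gadd45a, a stress sensor of DNA repair and growth arrest, shared the granulocyte peak. It was 331 [278, 392] and 452 [411, 496] in granulocytes, 73.3 and 84.1 in erythroid cells and 71.3 and 51.0 in progenitors. Megakaryocytes (14.0 and 5.5) and pericytes (12.9 and 17.3) were low in both mice, and the B lineage was low in the old mouse (38.9 and 15.6). Over the 22 sums its Pearson r with Sesn2 was 0.83, the highest of the 45 pairs of these genes, and both have their maximum in the same 2 granulocyte sums. Blood was higher than mesenchyme by 0.78 ± 0.22 (edgeR, adjusted p = 0.00468), with plain differences of 0.75 (young) and 0.05 (old), so the young mouse gives most of it, and after thinning it did not pass (0.75, adjusted p = 0.0714). ATF4 and 13 of its targets, summed, were 1548 and 1659 in granulocytes and 487 and 478 in stromal cells, but 2732 and 2188 in pericytes, where Gadd45a and Sesn2 were not raised. Of the granulocyte sums, 910 and 768 came from Slc7a11 alone. The part of ATF4 in these levels was not tested.

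Gdf15, a secreted stress cytokine of the TGF-beta family, was rare and concentrated. Only 136 young and 114 old cells held a UMI of it, and the 10 cells with most UMIs held 28.2% and 41.9% of all 262 and 327 molecules. Pericytes had the highest level, at 54.3 [33.6, 83.1] and 46.8 [30.8, 68.1], on 21 UMIs in 11 of 72 cells and 27 UMIs in 6 of 69 cells. Stromal cells held 6.38 [5.27, 7.66] and 9.28 [7.84, 10.9], fibroblasts 3.41 and 1.83, and osteoblasts 2.5 and 1.88. The blood groups held 0 UMIs in 901 young cells and 3 UMIs in 589 old cells. In chondrocytes, granulocytes, megakaryocytes and progenitors no UMI was seen in either mouse. The stromal level over both mice was 4.84-fold a limit of 3 counts in chondrocytes, 3.61-fold in granulocytes, 5.77-fold in megakaryocytes and 5.54-fold in progenitors. This limit covers counting error alone and leaves out the spread between the few cells that hold Gdf15, so these values are not lower bounds. Compared with stromal cells, Gdf15 was lower in osteoblasts (-1.56 ± 0.56, edgeR, adjusted p = 0.0400), fibroblasts (-1.33 ± 0.48, adjusted p = 0.0397) and tendon cells (-2.79 ± 0.81, adjusted p = 0.0156). The osteoblast and fibroblast calls were lost with DESeq2 (adjusted p = 0.244 and 0.310) and without the replicate block (adjusted p = 0.0533 and 0.0555), and after thinning Gdf15 was called in none of the mesenchymal groups set against stromal cells, with adjusted p from 0.127 to 0.356. Tendon cells held 0 and 5 UMIs, so that value depends on counts this low. The chondrocyte call (adjusted p = 0.0304) rests on a group without a UMI, and for blood the model gave no usable estimate.

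Btg2, an antiproliferative cofactor of mRNA deadenylation, was the gene counted most often (26923 and 23552 UMIs), and its order was the most sharply resolved, with 8 and 7 of the 10 neighbouring pairs of groups apart beyond their intervals. Granulocytes held 1913 [1781, 2052] and 2251 [2159, 2347], and pericytes 1526 and 1446. Chondrocytes followed with 681 and 613 and tendon cells with 462 and 468. Stromal cells held 386 and 337, osteoblasts 246 and 170, and progenitors 30.2 [21.9, 40.5] and 32.0 [20.1, 48.5]. Chondrocytes were higher than stromal cells by 1.18 ± 0.27 (edgeR, adjusted p = 0.00254, 2 of 2 mice). Blood was called lower than mesenchyme (-0.71 ± 0.12, adjusted p = 3.72e-05), and under the stricter gate, which holds no progenitors, the value was 0.11 (adjusted p = 0.519). Granulocytes and progenitors, the ends of the Btg2 order, were the opposite ends for Trp53, while megakaryocytes were low in both, and the Pearson r of these genes over the 22 sums was -0.77. Immediate-early genes, which are induced within minutes and also by digestion of tissue, moved with Btg2 among mesenchymal groups. Their 14 members summed to 22952 and 20640 in pericytes, 18709 and 21053 in chondrocytes, 16184 and 18529 in tendon cells, 13238 and 11894 in stromal cells, 13201 and 12686 in fibroblasts and 11253 and 7849 in osteoblasts. The young mouse had the 6 groups in the order of Btg2, whereas the old mouse had pericytes and chondrocytes, and stromal cells and fibroblasts, in exchanged places. In granulocytes, the highest for Btg2, they summed to only 9908 and 10946. The part of digestion in the Btg2 levels was not tested.

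**Figure D2:**
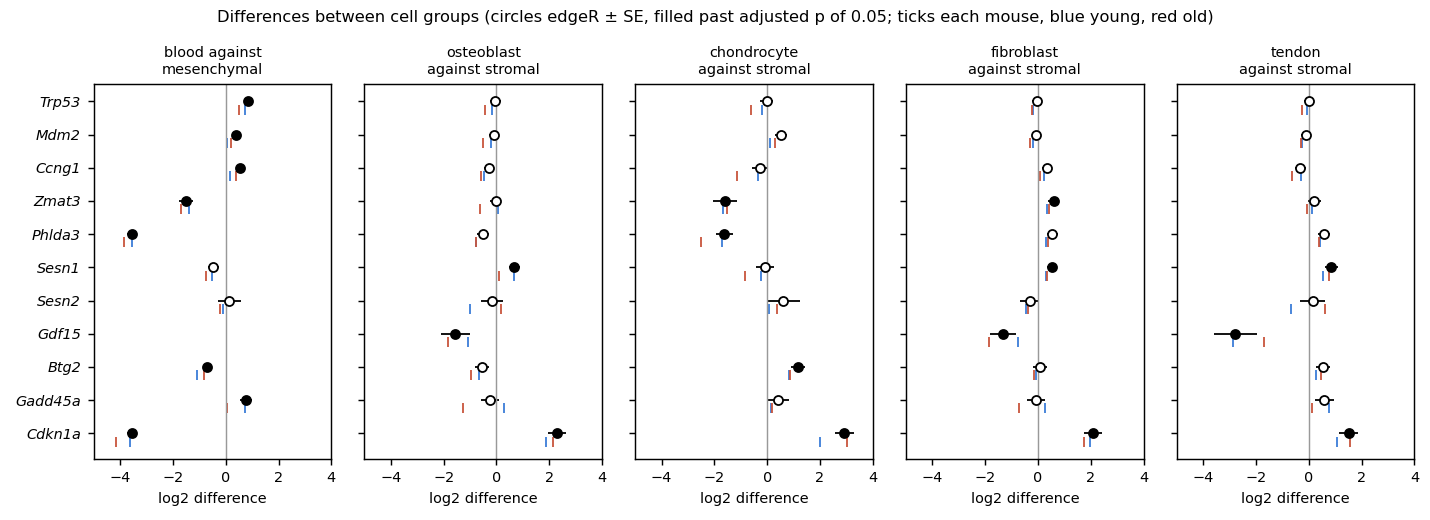
Log2 differences of the 10 genes and of Cdkn1a in the 5 comparisons of cell groups. Circles are edgeR estimates with their SE, filled where adjusted p was under 0.05, and ticks are plain differences of log2 levels in the young (blue) and the old (red) mouse. Gdf15 is left out where a compared side had almost no UMIs. Phlda3, Zmat3 and Cdkn1a lay far below 0 in blood, and Cdkn1a lay above 0 in all 4 mesenchymal groups set against stromal cells.

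Between single mesenchymal groups the calls among these genes were few. Against stromal cells, osteoblasts called 2 of 10 genes where 36.3% of all genes were called (17.4% higher, 18.9% lower), and chondrocytes 4 of 10 against 29.3% (14.7% and 14.6%). Fibroblasts called 3 of 10 against 39.7% (19.4% and 20.3%), and tendon cells 2 of 10 against 32.8% (16.3% and 16.5%). None of these shares stood far from that of all genes. Gdf15 was called lower in all 4, and Trp53, Mdm2, Ccng1, Sesn2 and Gadd45a were called in none. The 4 comparisons share the same stromal sums, so a call in all 4 is not 4 separate results. Cdkn1a, the p21 inhibitor of cyclin-dependent kinases and the best known p53 target, differed from all 10. It was lowest among mesenchymal groups in stromal cells (97.6 and 75.2) and reached 365 and 334 in osteoblasts, 388 and 257 in fibroblasts and 396 and 624 in chondrocytes. Its log2 differences from stromal cells were 2.30 ± 0.35, 2.09 ± 0.34 and 2.91 ± 0.36 in these groups and 1.5 ± 0.34 in tendon cells (edgeR, adjusted p = 3.26e-05, 6.89e-05, 4.83e-06 and 0.00205). Blood was lower by -3.56 ± 0.19 (adjusted p = 8.70e-12), a difference close in size to that of Phlda3.

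The wider p53 pathway was read from a list of 40 further genes, of which 39 were tested. Blood against mesenchyme called 9 higher and 20 lower, with a median log2 difference of -0.57, that is 74.4% of those tested against 63.6% of all genes, whose median was -0.23. The largest were Zfp365, of which blood held 1 UMI in all, Klf4 (-3.95) and Ptpn14 (-3.69). Against stromal cells, osteoblasts called 8 higher and 9 lower, led by Trp53i11 (-3.75), the receptor tyrosine kinase Epha2 (2.92) and the inflammatory protease Casp1 (-2.44). Chondrocytes called 8 higher and 6 lower, led by Perp (4.52), Casp1 (-4.34) and the death receptor Tnfrsf10b (3.85), although Perp rested on 4 UMIs in young and 0 in old chondrocytes. Fibroblasts called 11 higher and 12 lower, led by Perp (3.24), Zfp365 (2.88) and Klf4 (2.65), and tendon cells 9 higher and 6 lower, led by Notch1 (-3.09), Casp1 (-3.04) and the peptide transporter Tap1 (-2.25). The list thus went in both directions in each of these 5 comparisons.

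Regulators of p53 were measured as 18 of the 19 listed, of which 15 were tested. In blood 7 were called higher and 2 lower, or 60% against the same 63.6% of all genes, led by the checkpoint kinases Chek1 (4.06) and Chek2 (1.93) and by Cdkn2a (-3.91), which encodes p16 and the Mdm2 inhibitor ARF. Osteoblasts called 3 higher and 2 lower against stromal cells, with Cdkn2a (2.56), Rpl5 (1.03) and Rchy1 (-0.94) in front. Chondrocytes called 2 higher and 1 lower (Ppp1r13b 1.52, Rchy1 -1.07, Rpl5 1.06), fibroblasts 2 higher and 3 lower (Rpl5 1.20, Rchy1 -0.83, Rpl11 0.75) and tendon cells 2 higher and 2 lower (Rchy1 -0.84, Rpl5 0.78, Mdm4 -0.50). Rpl5 and Rpl11 are ribosomal proteins that can bind Mdm2, and Rchy1 is a ubiquitin ligase of p53. Rchy1 was thereby called lower and Rpl5 higher in all 4 groups than in stromal cells, whose sums the 4 comparisons share.

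The 14 immediate-early genes were all tested and all called lower in blood, led by Egr2 (-4.60), Fosb (-3.76) and Fos (-3.75). Chondrocytes called 9 higher and 0 lower than stromal cells (Ier3 2.49, Nr4a1 2.30, Ier2 1.72) and tendon cells 5 higher and 1 lower (Ier3 2.46, Dusp1 1.17, Fos 1.13). Osteoblasts called 2 higher and 1 lower (Ier3 1.38, Klf6 -0.69, Egr2 0.66), and fibroblasts likewise (Ier3 1.70, Egr2 -1.05, Dusp1 0.97). Of ATF4 and its targets 12 of 14 were tested. In blood 5 were called in each direction (Aldh1l2 -6.23, Slc7a11 4.70, Vldlr -4.03). Aldh1l2 rested there on 3 and 1 UMIs, all in erythroid cells. Slc7a11 was high in granulocytes alone (910 and 768), with the other blood groups below stromal cells (12.8 and 7.84). Against stromal cells osteoblasts and chondrocytes each called 7 higher and 1 lower, and fibroblasts and tendon cells each 6 higher and 1 lower. The 1 lower gene was the cystine transporter Slc7a11 in all 4, with -3.75 in osteoblasts, -2.30 in fibroblasts, 1 and 0 UMIs in tendon cells and 0 in chondrocytes of both mice. The leading higher genes were Aldh1l2 (4.35) and Vldlr (4.24) in osteoblasts, Chac1 (4 and 27 UMIs, against 5 and 7 in stromal cells) and Atf3 (2.99) in chondrocytes, Vldlr (2.95) and Atf3 (2.65) in fibroblasts, and Atf3 (1.72) and Mthfd2 (1.52) in tendon cells.

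No difference in these genes by CD24 protein passed the test. Cells were called CD24+ from their antibody count and compared with CD24- cells of the same group and mouse in 9 pairs of sums (stromal, osteoblast, chondrocyte and fibroblast cells of both mice and tendon cells of the young mouse). The fit draws most of its 8 residual degrees of freedom from groups of the same 2 mice. It called 0 of 8 genes tested, and 0.0111% of all 9027 genes, that is 1 gene, while 755 had an unadjusted p under 0.05. DESeq2 on the same sums called 7 genes, none of these 10. Gdf15 and Sesn2 were below the filter. Phlda3 was lower in CD24+ cells in 7 of 9 pairs, with 66.5 against 85.1 in young and 67.6 against 79.3 in old stromal cells and 82.7 against 106 and 69.5 against 105 in fibroblasts. Its estimate was -0.23 ± 0.10 (edgeR, adjusted p = 0.545), and with all mesenchymal cells pooled to 4 sums it was -0.58 (adjusted p = 0.0222), a setting in which 8.10% of all genes were called and the mix of groups differs between the sides. It was -0.02 after thinning and 0.13 with the top 25% of antibody counts taken as CD24+. Gadd45a was higher in CD24+ cells in 7 of 9 pairs (0.24 ± 0.10, adjusted p = 0.541). Trp53 (0.15 ± 0.13), Mdm2 (0.04 ± 0.11), Ccng1 (0.13 ± 0.15), Sesn1 (0.05 ± 0.14) and Btg2 (-0.07 ± 0.09) had estimates within 2 SE of 0, and Zmat3 was -0.11 ± 0.18. None of the other pathway genes, regulators, immediate-early genes or ATF4 targets was called, and Cdkn1a was 0.34 ± 0.14 (adjusted p = 0.513). Differences of the size of these errors would not have been seen.

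**Figure D3:**
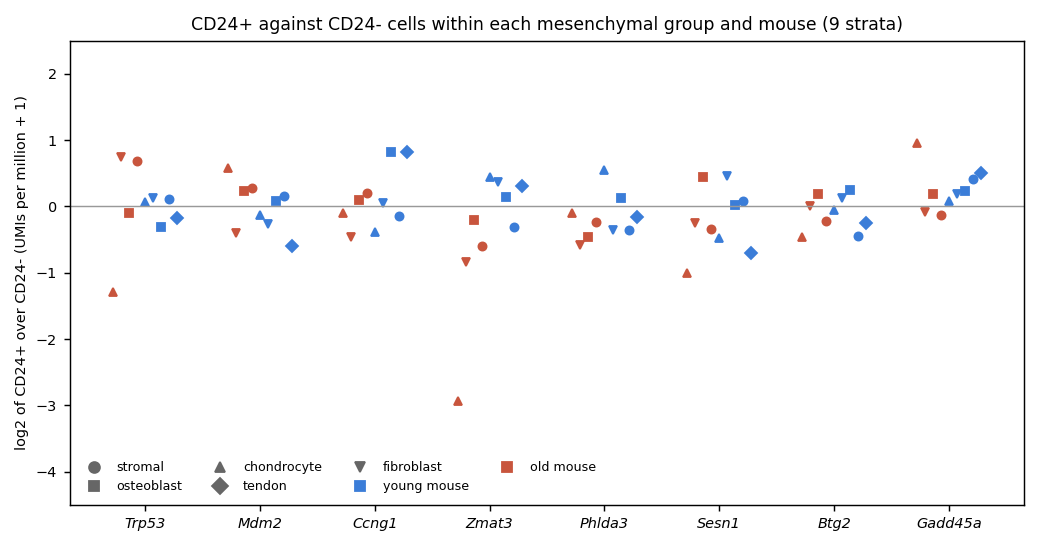
Log2 ratio of the level in CD24+ over CD24- cells (1 CPM added) for the 8 genes tested, with 1 point for each pair of sums, shaped by cell group and coloured by mouse. Points of every gene lie on both sides of 0. Phlda3 is below 0 in 7 of 9 pairs and Gadd45a above 0 in 7 of 9, and the lowest Zmat3 point comes from old chondrocytes.

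Cycling cells were those with at least 3 UMIs from at least 2 of 6 proliferation genes, and they were compared with cells holding none, in stromal, osteoblast and fibroblast cells of both mice. Only 13 to 21 cells made each cycling sum. Trp53 was 78.9 and 142 in cycling stromal cells against 55.1 and 55.5 in the others, 38.6 and 72.8 against 47.9 and 40.0 in osteoblasts, and 69.8 and 84.4 against 46.5 and 47.1 in fibroblasts, so it was higher in 5 of 6 pairs. It was the 1 gene of 10 called (0.66 ± 0.20, edgeR, adjusted p = 0.0385), where 11.3% of 10926 genes were called (6.06% higher, 5.21% lower). No alternative setting kept this call (adjusted p from 0.0544 to 0.976), and the mean over groups was 0.26 (young) and 1.01 (old). Btg2 (-0.52 ± 0.19, adjusted p = 0.0848), Sesn1 (-0.50 ± 0.29), Gadd45a (-0.49 ± 0.27) and Cdkn1a (-0.45 ± 0.21, adjusted p = 0.180) had estimates below 0 and did not pass. Among the other pathway genes Psrc1 (3.8), which is a mitotic spindle gene, was higher and Ddit4 (-1.24) and Sesn3 (-1.13), both restraints on mTORC1, were lower. Both regulators called were higher, namely Chek1 (3.78) and Chek2 (1.99). Of the immediate-early genes 5 were lower and none higher (Dusp1 -0.85, Fos -0.76, Egr1 -0.72), and of the ATF4 list Psat1 (1.80) and Mthfd2 (1.27) were higher and Atf3 (-0.79) lower.

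Between the old and the young mouse most of these genes had ratios near 1 in stromal cells and fibroblasts, while Gadd45a in stromal cells (1.80) and Gdf15 in fibroblasts (0.536) lay past 1.5-fold. Ratios of old over young levels were taken in the 5 groups with at least 100 cells in both mice, for genes with at least 20 UMIs, and since each age is 1 mouse they carry counting intervals and no test. In stromal cells Trp53 was 1.05 [0.957, 1.15], Mdm2 1.04 [0.923, 1.16], Zmat3 1.07 [0.889, 1.29], Phlda3 0.943 [0.874, 1.02] and Sesn1 0.996 [0.854, 1.16]. In fibroblasts Trp53 was 1.02 [0.919, 1.12], Mdm2 0.963 [0.845, 1.10], Ccng1 1.01 [0.893, 1.14] and Phlda3 0.988 [0.923, 1.06]. All of these intervals include 1. Those of Gadd45a in fibroblasts (0.885 [0.795, 0.985]) and of Trp53 in erythroid cells (0.788 [0.710, 0.875]) lay below 1. Btg2 was below 1 in stromal cells (0.872 [0.841, 0.904]), fibroblasts (0.823 [0.792, 0.855]) and osteoblasts (0.694 [0.642, 0.749]) and above 1 in erythroid cells (1.39 [1.28, 1.51]). The immediate-early sum also was lower in the old mouse in stromal cells, fibroblasts and osteoblasts, by the values given above, and in erythroid cells it went the other way from Btg2, from 1161 to 833. Its part in these ratios was not tested.

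**Figure D4:**
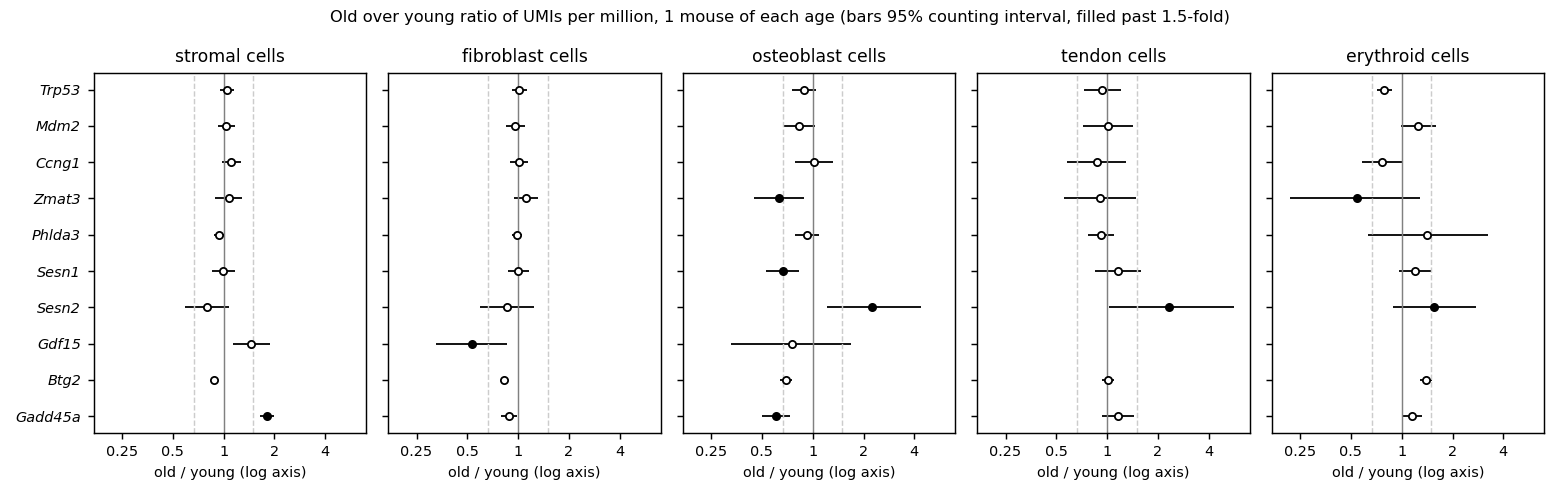
Old over young ratio of CPM for each gene in 5 cell groups, on a log axis. Each ratio compares 1 mouse with 1 mouse, bars are 95% counting intervals, dashed lines mark 1.5-fold, and filled points lie beyond it. Gadd45a lies at 1.80 in stromal cells and at 0.607 in osteoblasts.

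A ratio past 1.5-fold was seen for 1 of 10 genes in stromal cells, where 12.3% of all genes were as far apart, and for 1 of 10 in fibroblasts, against 12% of all genes. It was seen for 4 of 10 in osteoblasts (18.4%), 1 of 9 in tendon cells (14.9%) and 2 of 9 in erythroid cells (19.2%). Gadd45a was the stromal gene, with 37.2 [34.4, 40.1] against 66.9 [62.9, 71.0], a ratio of 1.80 [1.63, 1.98]. It was present in 6.37% of young and 11.2% of old stromal cells when every cell was reduced to 2000 UMIs (14.9% and 31.8% before). In osteoblasts Gadd45a had the opposite ratio, 0.607 [0.502, 0.734], from 45 to 27.3. Osteoblasts also had less Zmat3 (0.633 [0.449, 0.888]) and Sesn1 (0.663 [0.532, 0.825]) and more Sesn2 (2.26 [1.22, 4.41], on 15 and 39 UMIs) in the old mouse. Sesn2 was likewise above 1.5-fold in tendon cells (2.33 [1.02, 5.65]) and in erythroid cells (1.55 [0.891, 2.76]), whose interval includes 1, and below 1 in stromal cells (0.798, but 1.24 after thinning) and fibroblasts (0.860), again with intervals that include 1. The other erythroid gene was Zmat3 (0.542 [0.218, 1.29], on 15 and 10 UMIs). Gdf15 was 1.45 [1.13, 1.87] in stromal cells and 0.536 [0.326, 0.856] in fibroblasts, and these intervals leave out the spread between the few cells that hold much of it. Cdkn1a was below 1 in stromal cells (0.770 [0.715, 0.829]), fibroblasts (0.662 [0.636, 0.689]) and osteoblasts (0.915 [0.863, 0.971]). In erythroid cells it was 0.406 [0.238, 0.677], on 48 and 24 UMIs, and in tendon cells 1.07 [0.948, 1.21]. With doublets left out it was 0.898 in stromal cells, 0.665 in fibroblasts and 0.598 in erythroid cells. After thinning to 2000 UMIs, the osteoblast ratios were 0.775 for Gadd45a, 0.73 for Sesn1, 1.07 for Zmat3 and 2.49 for Sesn2, the last now under the minimum of 20 UMIs. Over all genes compared in osteoblasts the median log2 ratio was -0.13. With median ratio scaling, Zmat3 (0.693) and Sesn1 (0.726) were not past 1.5-fold there.

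Within a group, cells that held 1 of these genes hardly tended to hold another. Over cells thinned to 2000 UMIs, the 45 pairs had Spearman correlations between -0.036 and 0.080 in 2747 young stromal cells, between -0.065 and 0.15 in 1701 old stromal cells, between -0.076 and 0.067 in 2355 young fibroblasts and between -0.060 and 0.14 in 985 old fibroblasts. In osteoblasts they reached 0.11 over 734 young cells and 0.29 over 413 old cells, the latter for Trp53 with Sesn2, a pair at -0.027 in the young osteoblasts. At this depth most cells held 0 UMIs of most of these genes, so weak links could not be seen. Btg2 was the exception when set against gene sums and not against single genes. Its correlation with the immediate-early sum was 0.60 and 0.58 in young and old stromal cells, 0.55 and 0.52 in fibroblasts and 0.53 and 0.47 in osteoblasts, and with the ATF4 sum it was 0.33 and 0.37 in stromal cells. With the sum of the 40 other p53 pathway genes, which includes Klf4 and other inducible genes, it was 0.15 and 0.22 in stromal cells.

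The genes most like 3 of the members over the 22 sums were drawn from 6503 genes with a mean of at least 20 CPM, by Pearson r of log2 levels with 5 added. For Trp53 they were Twistnb (0.96), Ppid (0.94) and Sltm (0.94), and for Btg2 Map1lc3b (0.92), Ppm1m (0.85) and Cebpb (0.84). For Ccng1 they were Ap3b1 (0.81), Denr (0.73) and Hibch (0.73). None of these is on the lists of p53 genes used here, and the 22 points share 2 mice.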

How the data were processed

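The deposited matrices hold counts: whole UMIs per gene and barcode for 32285 genes and 1 antibody, written by the authors with Cell Ranger 6.1.1 per the file headers and mapped to mm10 per the submitters' processing notes (R 4.0.3, Seurat 4.0), with no normalization. Barcodes with at least 200 genes and at most 20% mitochondrial UMIs were kept. A cell joined the class with the highest marker score (mean over markers of log UMIs per 10k, scaled to the 99.5th percentile) if it reached 0.25 and led by 0.1. Scrublet (scanpy 1.11.5, seed 1) called 2.67% and 1.02% of cells doublets, low shares, which were kept in the main results. CD24+ cells lay above an Otsu threshold (312 and 396 antibody UMIs). Sums per mouse were tested with edgeR 4.0.16 (TMM, filterByExpr, mouse block) at an adjusted p of 0.05 after Benjamini-Hochberg correction, from groups of at least 20 cells and CD24 or cycling sums of at least 10, tested on simulated data first. Alternatives were DESeq2 1.42.0, no filter, no replicate block, doublets left out, a 10% mitochondrial limit, a stricter gate (0.3, lead 0.15), cells thinned to 2000 UMIs, and for CD24 the top 25% of antibody counts or 4 sums. Ages were compared by ratios with exact 95% intervals. Per-mouse log2 differences used 1 CPM (UMIs per 1000000) as pseudocount. All 10 members were named, and of the lists (other p53 pathway, regulators, immediate-early, ATF4) the 3 largest called differences and Cdkn1a. Members and lists were chosen with earlier results of these data known. The depth was 81076421 and 66702846 kept UMIs, and intervals cover counting error only. The genes most like Mdm2 are not reported here.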

Additional observations from a re-analysis of the deposited data

Results flagged for a closer look

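Gadd45a went opposite ways between the mice in 2 cell groups. Its old over young ratio was 1.80 [1.63, 1.98] in stromal cells and 0.607 [0.502, 0.734] in osteoblasts, both past 1.5-fold with counting intervals that leave out 1. The difference between the groups was not tested, since each age is 1 mouse. The stromal ratio ran from 1.77 to 1.90 over the 5 alternatives and the osteoblast ratio from 0.55 to 0.775, the last after thinning to 2000 UMIs.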

How the results depend on the processing

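Of the member counts, 57 of 76 alternative values stayed within 1.5 times of the reported count, and the cause of the others was not tested. Blood against mesenchyme fell from 7 called members to 3 after thinning to 2000 UMIs, which tested 9, and ran from 5 to 9 elsewhere. Osteoblasts fell from 2 to 1 with DESeq2 and without the replicate block, chondrocytes from 4 to 2 after thinning, fibroblasts from 3 to 1 after thinning and without the replicate block, and tendon cells rose from 2 to 4 with no filter. CD24 rose from 0 to 1 with 4 sums. Cycling fell from 1 to 0 with DESeq2, without doublets, with the stricter gate, after thinning and without the replicate block, and its 1 call was Btg2 with no filter and Gadd45a at the 10% mitochondrial limit. Members past 1.5-fold between the mice became 2 in stromal cells, 0 of 8 with enough UMIs in osteoblasts (Sesn2, at 2.49, and Gdf15, at 0.355, had too few) and 0 of 9 in fibroblasts after thinning, 2 in osteoblasts with median ratio scaling, and 2 in tendon and 1 in erythroid cells with the stricter gate. Of called or past 1.5-fold values, 2 turned direction: Btg2 in blood to 0.11 with the stricter gate and Zmat3 in osteoblasts to 1.07 after thinning. Of all member ratios between the mice, 14 of 47 changed sides of 1 after thinning, and 1 to 4 of 48 under the other settings.

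Over all genes, thinning lowered the calls from 8405 to 4230 in blood (with 27.5% instead of 40.6% of them higher and the median log2 moved by -0.20), from 4796 to 2581 in osteoblasts, from 3871 to 1729 in chondrocytes, from 5254 to 3323 in fibroblasts and from 4333 to 2386 in tendon cells. For CD24, 1 call became 222 with no filter, 0 without the replicate block, 7 with DESeq2, 2 without doublets, 4 at the 10% mitochondrial limit, 5 after thinning, 8 with the top 25% of antibody counts and 1198 with 4 sums. For cycling, 1231 calls became 1853 with no filter, 563 without the replicate block, 608 without doublets, 734 with the stricter gate and 262 after thinning. No count could be tested with 1 mouse left out, where the log2 differences of called members kept their sign. Thinning, which lowers depth, ended the blood calls of Trp53, Mdm2, Ccng1 and Gadd45a, and left Zmat3 untested there.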
